A study of Mus musculus with 4 samples.

Results

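The genes described here lie near Irf8 on mouse chromosome 8: Cox4i1, Gins2, Mthfsd, Usp10, Fbxo31, Map1lc3b, Klhdc4, Banp, Rhou and Gcsh, in order of their distance from it. These are 10 of the 18193 genes with a probe set of their own on the larger of the 2 arrays used. Their probe sets were chosen by gene symbol, and the list of genes includes some selected on their change between the same samples, so their ratios are given as a description with no test. The study compared granulocyte/monocyte progenitors (GMP), sorted by flow cytometry from marrow, between mice that lack Icsbp, the older name of the transcription factor Irf8, and wild type mice. Each genotype was measured once on the Affymetrix 430A array and once on the larger MOE430_2 array, which made 4 arrays. Each array carried RNA of an independent preparation from mice aged 10 to 16 weeks. Marrow of 10 or more mice was pooled for a wild type preparation, and 8 or more mice gave an Icsbp-deficient one. A further Icsbp-deficient preparation named in the design text was not analysed here. The wild type preparation on the 430A array came from mice whose background was mixed, C57/Bl6 with S129Ola, and is placed as wild type by the series' design text, since its own label names no genotype. For the other 3 preparations the sources used here give no strain, for that wild type one no labelling kit, and for Icsbp no account of the deleted part. An ENZO kit was used for the deficient sample on 430A, and the one-cycle kit for the MOE430_2 pair.

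Irf8 belongs to the IRF family of DNA-binding proteins and is known for directing progenitors towards monocytes and dendritic cells and for limiting the output of granulocytes. A gene disrupted by targeting keeps its neighbours on the chromosome, and these neighbours are inherited together with it. The 10 genes described here have varied known functions. Among the 10 genes are 2 enzymes or subunits of mitochondria (Gcsh, Cox4i1), a DNA replication factor (Gins2), a protein of autophagosomes (Map1lc3b), genes of ubiquitin handling (Usp10, Fbxo31), a small GTPase (Rhou), a nuclear matrix-binding protein (Banp), a relative of folate enzymes (Mthfsd) and a kelch-domain protein (Klhdc4).

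Rhou had the largest difference of the 10 genes, with about 2-fold higher signal in Icsbp-deficient GMP on both array types and by both of its probe sets. Usp10, Klhdc4 and Gcsh had lower signal on both array types, by 1.43-fold to 1.68-fold on average. The 3 brighter probe sets of Map1lc3b had higher signal on both, by 1.22-fold to 1.35-fold, but their log2 ratios were 0.03 to 0.18 with the values as deposited. In that setting the arrays were not scaled, and the median log2 ratio of each array type was subtracted from its ratios. Of the 10 genes the 2 nearest to Irf8, Cox4i1 and Gins2, had ratios between -0.28 and 0.28 on the log2 scale.

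The 10 genes had 17 probe sets, of which 12, from 8 genes, were on both array types and 5 were only on MOE430_2. Gins2 and Mthfsd were measured only there. Signals are given after each array was scaled to a common trimmed mean of 500. Ratios are those of deficient to wild type GMP as differences of log2(signal + 50), after the arrays of a type were quantile normalized against each other, which understates changes of dim probe sets. Of the 12 probe sets on both types 11 passed the filter on low signals, and of the 5 others all 5 did. A change of at least 1.5-fold in 1 direction on both types was seen for 2 of the 12, both higher and both of Rhou, and for 0 in the lower direction. Over all 13576 probe sets that passed the filter, 2.23% were higher and 1.63% lower by that measure. Nothing is read from this comparison, because the same ratios helped to choose the genes. The median ratio was 0.12 over the 11 probe sets and -0.01 over the 13576.

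The spread between the 2 array types is the only replicate spread in the data. Over the 13576 probe sets the 2 ratios differed by a median of 0.22, with a 95th percentile of 0.81, and 36.9% had opposite signs. The mean ratio was larger than the difference between types for 8 of the 11 probe sets, against 42.4% of the 13576, which again only describes genes chosen with these ratios known. Errors written as ± are standard errors moderated by limma, for the mean over n = 2 ratios, and borrow mostly from other probe sets.

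**Figure D1:**
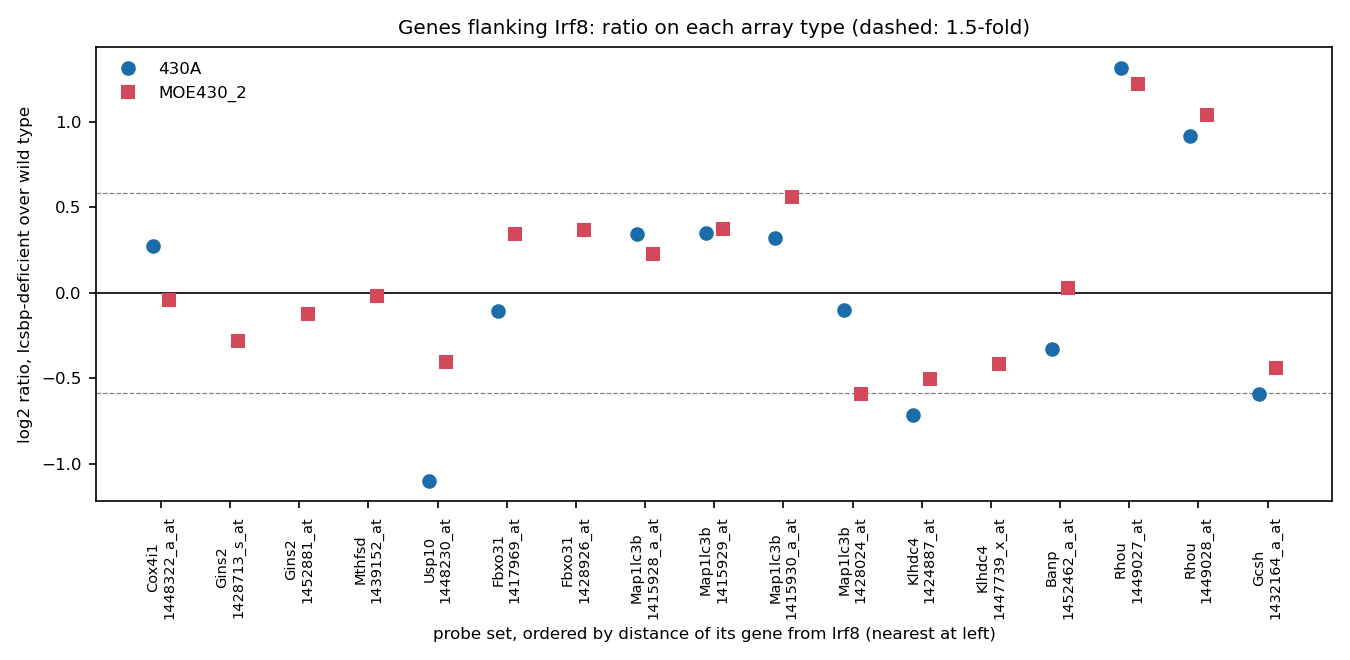
Log2 ratio of Icsbp-deficient over wild type GMP for each of the 17 probe sets, on the 430A (circles) and MOE430_2 (squares) arrays, ordered by distance of the gene from Irf8, with dashed lines at 1.5-fold. Both Rhou probe sets lie above the upper line on both array types, and no probe set on both types lies below the lower line on both.

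The 4 arrays differed in scale as deposited. The wild type 430A array had a trimmed mean of 498 over the shared probe sets, and the other 3 had 159 to 167. Of 9 markers of GMP, such as Mpo and Elane, all 9 passed the filter on low signals. Their summed scaled signal was 71449 (wild type) against 73646 (deficient) on 430A, and 105054 against 130038 on MOE430_2. Within this list Cd34 fell by 1.73 ± 0.13 (limma adjusted p = 0.00013), Fcgr3 rose by 1.00 ± 0.11 (adjusted p = 0.00077) and Csf2ra rose by 0.55 ± 0.13 (adjusted p = 0.0429). The 2 measured B cell markers and the 2 measured T cell markers did not pass the filter, with highest scaled signals of 108 and 119.7. Mature neutrophil markers (Camp, Ltf, Ngp and Mmp8) summed to 1439 against 3812 on 430A, and to 1354 against 6357 on MOE430_2. The 2 measured erythroid markers, Klf1 and Car1, summed to 367 against 168, and to 673 against 32.5. Basophil, mast cell and eosinophil markers (Cpa3, Mcpt8, Prg2 and Ms4a2) summed to 3525 against 1137, and to 4739.6 against 727. Of the 3 monocyte markers Ly86 fell, from 1517 to 15.6 on 430A and from 1878 to 9.46 on MOE430_2 (limma adjusted p = 2.1e-06). Ccr2 rose, from 821 to 2278 and from 1283 to 3581 (adjusted p = 0.00026). Csf1r was at -0.01 ± 0.11, and the 3 summed to 5058 against 5055, and to 7419 against 7785. In bulk samples, fewer cells of a type and less RNA per cell cannot be told apart. Irf8 itself was read by 2 probe sets on all 4 arrays. At 1416714_at the scaled signals were 3059 (wild type) against 2776 (deficient) on 430A, and 4798 against 2725 on MOE430_2. At 1448452_at they were 3074 against 3234, and 1847 against 1892. Whether these probes lie in the deleted part is not known here, so they do not check the labels, and every direction rests on the samples as labelled.

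Promoters were available from RefSeq (GRCm38.p6) for 7 of the 10 genes. They are shown for the 4 genes whose mean ratio lay farthest from 0, to let their start regions be compared. Each run holds 250 bases before and 50 after an annotated start site. The capital letter is the first transcribed base, and no motif is marked because the search described next matched none.

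Rhou, chr8:123653679-123653978, plus strand: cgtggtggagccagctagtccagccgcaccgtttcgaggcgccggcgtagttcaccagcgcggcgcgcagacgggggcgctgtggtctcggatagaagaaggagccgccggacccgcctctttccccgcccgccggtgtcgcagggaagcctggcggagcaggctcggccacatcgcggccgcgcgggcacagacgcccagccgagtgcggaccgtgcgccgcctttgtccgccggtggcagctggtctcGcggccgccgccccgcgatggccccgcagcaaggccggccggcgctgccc

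Usp10, chr8:119910110-119910409, plus strand: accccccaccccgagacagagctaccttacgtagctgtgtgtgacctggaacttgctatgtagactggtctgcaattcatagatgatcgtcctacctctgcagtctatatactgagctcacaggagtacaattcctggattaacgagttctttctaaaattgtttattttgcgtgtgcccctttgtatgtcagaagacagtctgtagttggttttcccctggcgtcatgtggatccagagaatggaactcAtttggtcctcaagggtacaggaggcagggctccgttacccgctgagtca

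Klhdc4, chr8:121829520-121829819, minus strand: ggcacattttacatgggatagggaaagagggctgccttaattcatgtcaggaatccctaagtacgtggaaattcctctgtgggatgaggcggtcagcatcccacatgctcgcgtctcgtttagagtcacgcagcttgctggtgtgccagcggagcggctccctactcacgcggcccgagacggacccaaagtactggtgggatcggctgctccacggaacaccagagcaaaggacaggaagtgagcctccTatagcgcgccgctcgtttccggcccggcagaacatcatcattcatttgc

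Gcsh, chr8:116993449-116993748, minus strand: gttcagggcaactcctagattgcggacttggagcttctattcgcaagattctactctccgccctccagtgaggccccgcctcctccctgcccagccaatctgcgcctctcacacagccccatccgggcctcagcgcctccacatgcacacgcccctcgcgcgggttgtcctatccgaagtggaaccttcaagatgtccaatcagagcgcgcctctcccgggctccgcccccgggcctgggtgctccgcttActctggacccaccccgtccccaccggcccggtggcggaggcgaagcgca

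The Rhou window held 46 CpG dinucleotides and 75.7% G and C, and those of Gcsh and Klhdc4 held 24 and 20 CpG. The Usp10 window held 8 CpG and 48.3% G and C, close to the medians of 7 CpG and 52.7% over all 32851 windows of the table. The windows were searched on both strands for the interferon-stimulated response element core GAAANNGAAA, which IRF proteins are known to bind, and for GGAANNGAAA and GAAANNGGAA, composite elements of IRF and ETS factors. A run of bases can match more than 1 of these. These letters were in 0 of the 7 windows and in 0 of the 2 windows of Irf8. Over all windows 3.44%, 2.72% and 2.8% held the respective motif and 8.37% held at least 1.

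Rhou encodes an atypical small GTPase known for roles in cell shape and adhesion. It lies on the side of higher coordinates, with 55 protein-coding genes between it and Irf8. At 1449027_at its scaled signal was 230.3 (wild type) against 657 (deficient) on 430A, and 203 against 521 on MOE430_2. The 2 wild type arrays were low and the 2 Icsbp-deficient arrays high, without overlap. How many of all probe sets separate in this way was not counted. The 2 array types were scaled to the same trimmed mean but not normalized to each other. Nothing is therefore read from such a separation, here or for the genes below. The ratios were 1.32 and 1.22, a mean of 1.27 ± 0.16 or 2.41-fold. Of the 13576 probe sets, 54 had a higher mean ratio. At 1449028_at the signals were 167 against 364 on 430A, and 164 against 379 on MOE430_2. The groups again did not overlap, with ratios of 0.92 and 1.04 and a mean of 0.98 ± 0.17, or 1.97-fold. With the values as deposited, after the median ratio of each array type was subtracted, the mean ratios of the 2 probe sets were 0.92 and 0.69. They read the same 4 RNA samples, so they are not independent replicates. The mature neutrophil markers given above were also higher in Icsbp-deficient GMP on both array types, and their part in this difference was not tested.

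Usp10 encodes a deubiquitinase known to act on p53 and to bind the stress granule protein G3bp1. It lies on the side of lower coordinates, with 10 protein-coding genes between it and Irf8. Its scaled signal was 1999.6 (wild type) against 905 (deficient) on 430A, and 1074 against 787 on MOE430_2. The Icsbp-deficient arrays were below both wild type arrays, but the size differed between types. The 430A ratio was -1.10 and the MOE430_2 ratio -0.40, with a mean of -0.75 ± 0.17. Of the 13576 probe sets, 207 had a lower mean ratio. The 0.69 between its 2 ratios compares with the median difference of 0.22 over all probe sets.

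Klhdc4 encodes a kelch-repeat protein and lies on the other side of Irf8, with 9 protein-coding genes between. At 1424887_at the signal was 383 (wild type) against 217 (deficient) on 430A, and 323 against 205 on MOE430_2. Both Icsbp-deficient values were below both wild type values. The ratios were -0.71 and -0.51, a mean of -0.61 ± 0.17. A further probe set present only on MOE430_2, 1447739_x_at, had signals of 135 and 84.5 and a ratio of -0.42. The suffix x marks probes that can also bind other transcripts, so this value is less certain.

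Gcsh encodes the H protein of the mitochondrial glycine cleavage system, which carries the aminomethyl group between its enzymes. It is the farthest of the 10 genes by distance, with 36 protein-coding genes between it and Irf8 on the side of lower coordinates. Its signal was 1557 (wild type) against 1016 (deficient) on 430A, and 1616 against 1160.4 on MOE430_2. The groups did not overlap. The ratios were -0.59 and -0.44, with a mean of -0.52 ± 0.13 or 1.43-fold lower, and of -0.74 with the values as deposited.

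**Figure D2:**
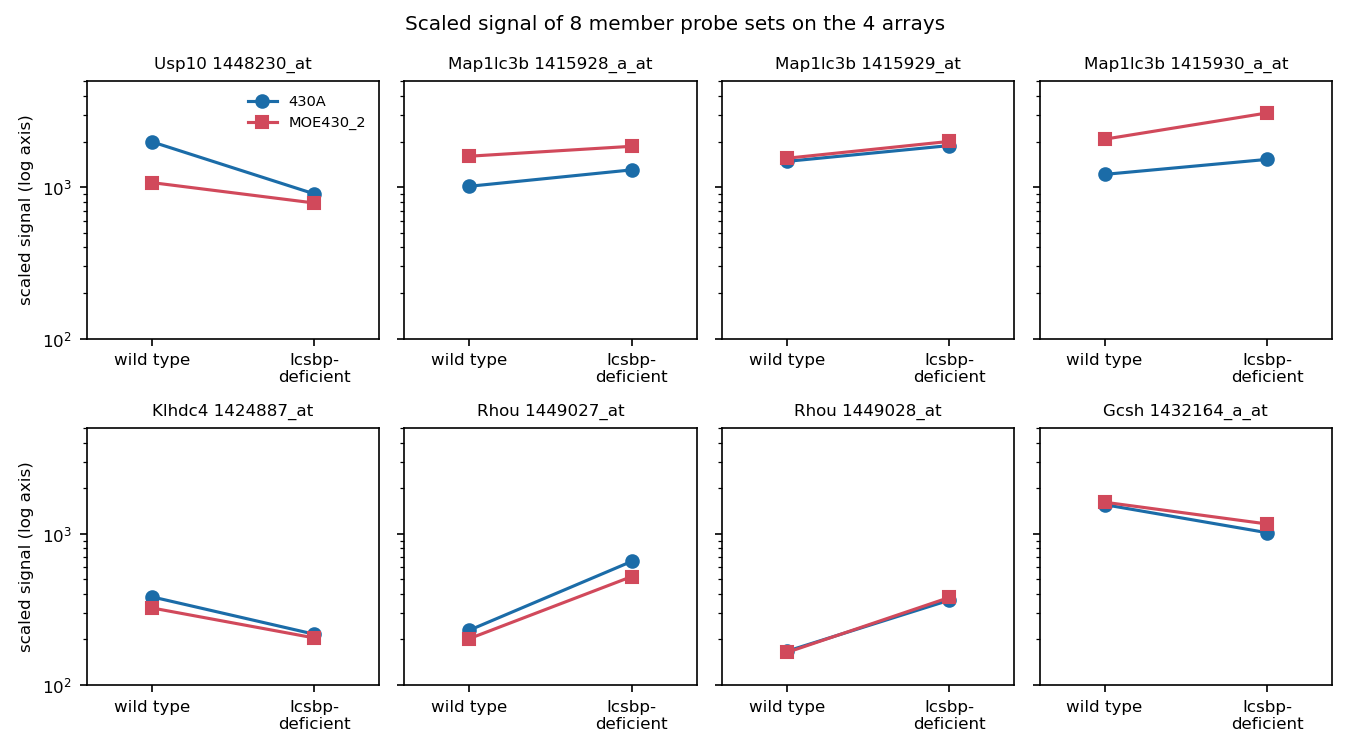
Scaled signal on a log axis of 8 probe sets of Usp10, Map1lc3b, Klhdc4, Rhou and Gcsh in wild type and Icsbp-deficient GMP, with 1 point per array and a line joining the arrays of a type (430A circles, MOE430_2 squares). Lines run down for Usp10, Klhdc4 and Gcsh and up for Rhou and Map1lc3b on both array types.

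Map1lc3b encodes LC3B, the ubiquitin-like protein that is joined to lipid on autophagosome membranes. It has 6 protein-coding genes between it and Irf8 and is read by 4 probe sets. At 1415929_at the signal was 1483 (wild type) against 1886 (deficient) on 430A, and 1555 against 2009 on MOE430_2. Both Icsbp-deficient values lay above both wild type values, and the ratios of 0.35 and 0.37 had a mean of 0.36 ± 0.13. At 1415928_a_at the signals were 1015 and 1303, and 1604 and 1865. There the wild type value on MOE430_2 lay above the deficient value on 430A, so that the groups overlapped across types, with a mean ratio of 0.28 ± 0.13. At 1415930_a_at they were 1216 and 1528, and 2078 and 3097, with the same overlap across types and a mean ratio of 0.44 ± 0.13. With the values as deposited the mean ratios were 0.08 at 1415929_at, 0.03 at 1415928_a_at and 0.18 at 1415930_a_at. The fourth probe set, 1428024_at, had signals of 4.73 to 32.4, which lie under the offset of 50. It did not pass the filter, and its ratios of -0.10 and -0.59 turned to a mean of 0.24 with the values as deposited.

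Cox4i1 encodes subunit 4 of cytochrome c oxidase, the last complex of the respiratory chain, and no protein-coding gene lies between it and Irf8. Its signal was 5984 (wild type) against 7643 (deficient) on 430A, and 10396 against 11652 on MOE430_2. Both deficient values were the higher of their pair before quantile normalization. After it the ratios had opposite signs, 0.28 and -0.04, with a mean of 0.12 ± 0.10, which became -0.03 with the values as deposited. Gins2 encodes a subunit of the GINS complex, part of the helicase that opens DNA for replication, and has 4 protein-coding genes between it and Irf8. On MOE430_2 its signal was 712 (wild type) against 571 (deficient) at 1428713_s_at, and 527 and 470.3 at 1452881_at. The ratios were -0.28 and -0.13, each from 1 pair of arrays with no replicate.

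Mthfsd, which encodes a protein with a methenyltetrahydrofolate synthetase domain, has 1 protein-coding gene between it and Irf8. It had signals of 197 (wild type) against 185 (deficient) on MOE430_2 and a ratio of -0.02. Fbxo31 encodes an F-box protein, the part of an SCF ubiquitin ligase that binds substrates, and has 5 protein-coding genes between it and Irf8. At 1417969_at its signals were 371 against 342 on 430A, and 165 against 214 on MOE430_2. The ratios had opposite signs, -0.11 and 0.34, with a mean of 0.12 ± 0.18 and of -0.08 with the values as deposited. The Fbxo31 probe set present only on MOE430_2, 1428926_at, read 350.3 and 453, a ratio of 0.37 close to that of the other probe set on the same arrays. Banp encodes a nuclear protein that binds matrix attachment regions of DNA, and has 13 protein-coding genes between it and Irf8. Its signals were 241 against 183 on 430A, and 165 against 163 on MOE430_2, with ratios of -0.33 and 0.03 and a mean of -0.15 ± 0.19. For the 5 probe sets only on MOE430_2, 0 reached a 1.5-fold change, where 6.43% of the 6594 such probe sets past the filter were that much higher and 5.1% that much lower.

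**Figure D3:**
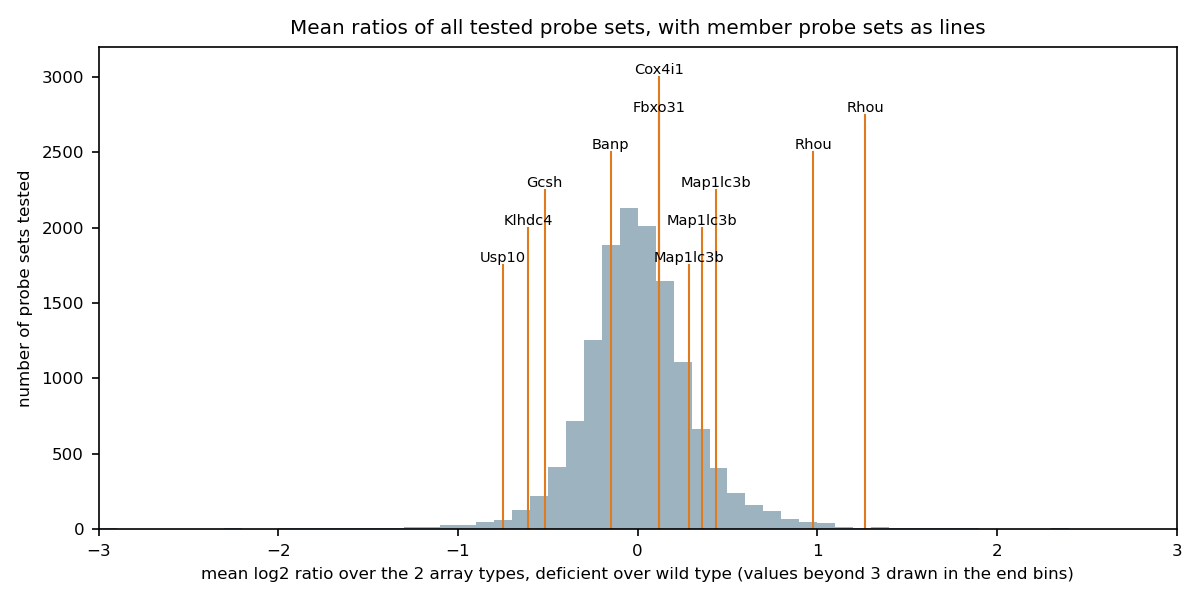
Number of the 13576 tested probe sets in each 0.1-wide bin of mean log2 ratio over both array types (bars), with vertical lines at the 11 probe sets of the flanking genes that passed the filter (line height has no meaning). The 2 Rhou lines, at 0.98 and 1.27, stand in the sparse upper tail, and those of Cox4i1, Fbxo31 and Banp stand in the centre.

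The other genes around Irf8 were then examined by the limma fit over all probe sets, with each gene represented by its brightest tested probe set. In this fit 255 of 7822 genes were higher (3.26%) and 183 lower (2.34%). With the values as deposited, a setting that lowers the ratios of bright probe sets as described above, the split was 64 higher and 139 lower. Of the 50 tested genes nearest to Irf8, leaving out the 10 described above, 1 rose and 2 fell, and 47 did not pass. That is 2% and 4%. Their ratios ran from -1.28 to 0.62 with a median of -0.02, and the median over all genes was -0.01. All 3 called genes lay on the side of higher coordinates, where 34 of the 50 lie, and 0 of 16 on the other side passed limma's test. At an unadjusted p under 0.05 there were 8 of the 50, against 1525 of the 7822 genes. Without array type as a block limma called only 1 of the 7822 genes, with 375 at an unadjusted p under 0.05. Of the 50, 0 passed limma's test there and 2 were at an unadjusted p under 0.05. With any 1 of the 4 arrays left out, 1 genotype has only 1 array and array type is partly mixed with genotype. Such fits cannot decide whether a call holds.

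Abcb10, a mitochondrial transporter known for its role in erythroid cells, fell most of the 50. Its signal was 1141 (wild type) against 377 (deficient) on 430A, and 581 against 243 on MOE430_2. Both Icsbp-deficient arrays were below both wild type arrays, at a mean ratio of -1.28 ± 0.16 (limma adjusted p = 0.0022). Zfpm1, a cofactor of GATA factors also called Fog1, fell by 1.16 ± 0.24 (limma adjusted p = 0.0234). Its signals were 211 against 99.9 on 430A, and 146 against 17.3 on MOE430_2, and its adjusted p was 0.0539 with an offset of 16 and 0.103 without the filter. The 2 measured erythroid markers were lower on the same arrays, as given above, and their part in these falls was not tested. Cyba, a subunit of the phagocyte oxidase, rose by 0.56 ± 0.11 (limma adjusted p = 0.0176), from 3164 to 4563 on the 430A array and from 2840.1 to 4322 on MOE430_2. It was no longer called with the values as deposited (adjusted p = 0.903), without the filter (0.0557) or without the intensity trend (0.127). The mature neutrophil markers were higher on the same arrays, and their part in this rise was not tested.

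Klhl36 and Slc7a5, an amino acid transporter, were singled out after their values were seen and did not pass, at 0.62 ± 0.22 (limma adjusted p = 0.156) and -0.52 ± 0.14 (limma adjusted p = 0.067). Taking the tested genes of the chromosome by rank of distance from Irf8, again without the flanking genes, 2 of 19 were called among ranks 1 to 25 and 1 of 23 among ranks 26 to 50. Farther out 2 of 50 were called among ranks 51 to 100, 5 of the next 100 and 6 of the 209 beyond. These shares were 10.5%, 4.35%, 4%, 5% and 2.87%, against 5.6% of all genes. The nearest shares rest on 1 or 2 called genes, and genes had been taken out of them for their ratios.

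**Figure D4:**
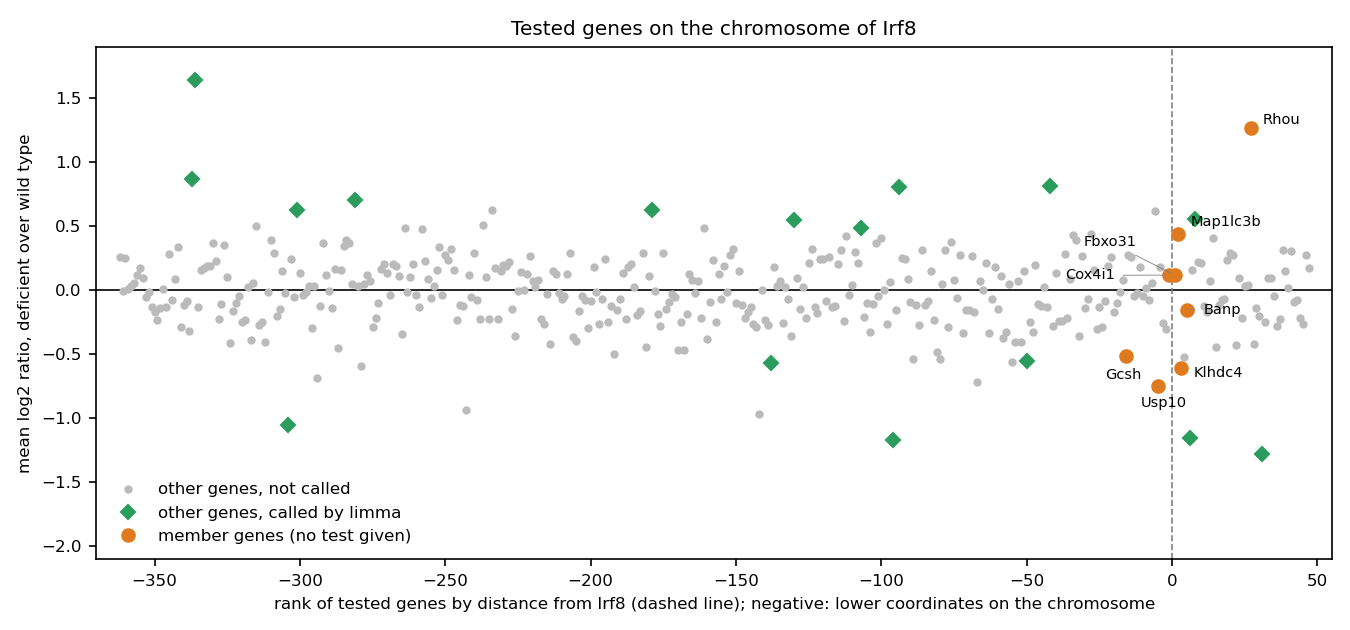
Mean log2 ratio of the tested genes on the chromosome of Irf8 against their rank by distance from Irf8, with lower coordinates to the left of the dashed line (grey points, other genes not called; green diamonds, other genes called by limma; orange circles, the 8 flanking genes measured on both array types, for which no test is given). Abcb10, Zfpm1 and Cyba are the 3 diamonds nearest to the line, all on its right, and called genes also lie far from Irf8.

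Genes that work with the 10 flanking genes, on any chromosome, were taken from lists of partners. Of 72 listed genes 54 were tested, of which 3 rose and 2 fell (5.56% and 3.7%, against 3.26% and 2.34% of all genes). At an unadjusted p under 0.05 there were 12 of the 54, against 1525 of all 7822 genes. Without array type as a block 0 of the 54 passed limma's test, with 4 at an unadjusted p under 0.05. That fit called only 1 of the 7822 genes, with 375 at an unadjusted p under 0.05.

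Of 10 genes of the LC3 and GABARAP family and its conjugation system, 1 rose and 0 fell. Gabarap, a relative of LC3B, was at 0.49 ± 0.11 (limma adjusted p = 0.0347), with signals of 2676 against 3827 on 430A, and 2738 against 3854 on MOE430_2. Atg3 was at -0.36 on 430A and 0.36 on MOE430_2, and Atg12 was at -0.01 ± 0.14. Of 8 other cytochrome c oxidase subunits 0 were called by limma, and they lay between -0.13 and 0.09, with Cox6a1 at -0.07 ± 0.08 and Cox7a2 at 0.00 ± 0.09. Of 9 GINS, Cdc45 and MCM genes 0 were called. Mcm7 was at -0.13 ± 0.09 and Mcm6 at -0.21 ± 0.10, and the list's median was -0.13.

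Of 9 listed folate one-carbon enzymes 5 were tested, of which 2 were called lower (40%, against 2.34% of all genes) and 0 higher. The list was chosen with earlier results of these data known, so nothing is read from this share. It includes serine hydroxymethyltransferases, which supply the glycine broken down by the Gcsh system. Shmt2 fell by 0.66 ± 0.12 (limma adjusted p = 0.0133), with signals of 2821 against 1843 on 430A, and 3159 against 1908 on MOE430_2. Mthfd2 fell by 0.82 ± 0.19 (adjusted p = 0.0383), with signals of 708 and 502, and 473 and 173. The brightest others were Mthfd1 at -0.46 ± 0.15 (adjusted p = 0.119) and Shmt1 at -0.40 ± 0.15 (adjusted p = 0.195). Of the glycine cleavage enzymes only Dld was tested, at -0.10 ± 0.14. Of 5 SCF ligase genes and 3 partners of Usp10, 0 were called by limma, with Skp1 at -0.19 ± 0.11, Fbxw11 at 0.24 ± 0.12, G3bp1 at -0.12 ± 0.12 and G3bp2 at -0.04 ± 0.14. Of 2 partners of Banp the chromatin organizer Satb1 rose by 0.77 ± 0.15 (adjusted p = 0.0163), with signals of 655 against 1068 on 430A, and 568 against 1074 on MOE430_2, and Cux1 was at -0.10 ± 0.14. The relatives of Klhdc4 that were tested, Klhdc2 and Klhdc3, did not pass, at -0.52 ± 0.14 (adjusted p = 0.0698) and -0.34 ± 0.12 (adjusted p = 0.144). The calls of Gabarap, Shmt2 and Satb1 ended with the values as deposited, and these and that of Mthfd2 ended without the intensity trend. Those of Gabarap and Mthfd2 also ended with an offset of 16 (limma adjusted p = 0.0504 and 0.0647) and without the filter (0.0821 and 0.129).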

How the data were processed

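RNA of sorted GMP was measured on 4 arrays, 1 per genotype and array type, with 22690 probe sets on 430A, all also on MOE430_2. The authors deposited a linear signal intensity for every probe set. Per the submitters' processing notes GCOS was used for MOE430_2; the sources used here give no version or settings, and no software for 430A. The number of arrays limits the precision.

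Without 64 control probe sets, 22626 were shared. Signals were scaled so that the 2% trimmed mean over these was 500 on every array, 50 was added, log2 taken, and the arrays of a type quantile normalized. Probe sets only on MOE430_2 were normalized with all of that array. Of the shared ones, 20380 had 1 symbol in the platform annotation, and 20351 of these matched the GRCm38.p6 RefSeq gene table, used for symbols and gene order. Probe sets with a mean under the 40th percentile were not tested, which left 13576 and 7822 genes. limma 3.58.1 in R 4.3.3 was fitted across all probe sets with array type as a block and an intensity trend. The test was two-sided at a Benjamini-Hochberg threshold of 0.05, with 1 residual and 8.9 prior degrees of freedom. Data simulated to check the fit had the same noise for every probe set. They could therefore not check the intensity trend or unequal spreads. The design text calls the preparations independent, with 1 per genotype and array type. The p-values rest in part on the difference between the ratios of the 2 array types. They rest mostly on the spread of other probe sets on these 4 arrays.

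The members, neighbour and partner lists, and named genes (all members, called neighbours and partners, and at most 2 bright others per partner list) were chosen with earlier results of these data known. The results of 1 partner list, counted in the totals, are not reported here. Alternatives were other normalizations, offsets, filters, folds and models.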

Additional observations from a re-analysis of the deposited data

How the results depend on the processing

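The 2 Rhou probe sets past 1.5-fold on both array types held in all 6 other normalizations and offsets, and 1 passed at 2-fold. The 0 lower became 3 at the smaller fold tried, 3 on the 430A arrays alone and 1 on the MOE430_2 arrays alone, the dim Map1lc3b probe set 1428024_at that did not pass the filter. Of 109 other values of the 17 ratios and Irf8, 96 moved by less than a measure of spread and 13 by more. The measure was the standard deviation of a probe set's own 2 ratios. For those only on MOE430_2 it came from the median difference over all tested probe sets. Probe sets with close ratios, such as those of Rhou, thus counted as moved after small changes. Cox4i1 and Fbxo31 at 1417969_at changed sign as deposited without counting as moved. As deposited, the 430A ratios had a median of -0.98, which was subtracted, and the offset then weighs unequally on the 2 arrays. Bright probe sets therefore get lower 430A ratios in this setting, so it is not an even check of them. This setting gave -0.22 for Irf8 at 1448452_at.

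At an unadjusted p under 0.05 there were 1525 genes in the limma fit described above. There were 1761 without the filter, 1348 without the intensity trend and 375 without the array type block. The count of 438 called genes became 203 with the values as deposited, 180 without the filter, 171 without the intensity trend and 1 without the array type block. Leaving out 1 array in turn in the unblocked limma fit gave 13 to 52 genes, 0 of the 50 neighbours and 0 of the 54 partners, with 2 to 3 neighbours and 0 to 3 partners at an unadjusted p under 0.05. Called neighbours among the 50 nearest became 0 without the filter (8 at an unadjusted p under 0.05), where more genes are tested, so that another set of genes is nearest. Abcb10 kept its call there (limma adjusted p = 0.0187). They became 0 without the block, and 5 of the nearest 100. The 5 called partners became 1 as deposited, 3 with an offset of 16, 3 without the filter, 0 without the trend (10 at an unadjusted p under 0.05) and 0 without the block (4). No setting turned the direction of a named called gene. Apart from the lowering of bright ratios in the setting as deposited, the cause of these changes was not tested. Dim probe sets, near the offset, limit what can be read from low signals.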
